A study of Mus musculus with 2 samples.

Results

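The Mir1, Mir133 and Mir206 genes are the classical muscle microRNA family, described here across 2 libraries of small RNA labelled as mouse calf muscle. The members were taken by name, as the rows of the deposited count files whose Ensembl identifiers carry 1 of 8 symbols in GENCODE M21. All 8 were found among the 2202 annotated microRNA genes. They are Mir206, Mir133b, Mir1a-1, Mir133a-2, Mir1a-2, Mir133a-1, Mir1b and Mir133c.

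The labels give 1 group, gastrocnemius of male B6CASTF1/J hybrid pups at 4 days of age, with no treatment, no transgene and no other condition. It holds biological replicates numbered 1 and 2, from separate biosamples and animal numbers under a shared donor identifier. The libraries held 8522350 and 7240126 reads, of which 4458853 and 3073086 were sense reads of microRNA genes, so replicate 1 was 1.45 times as deep. Each value below has no further replicate, its interval covers counting error only, and a difference is between these 2 libraries and not between conditions.

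The label was checked against the defining marker of skeletal muscle, Mir206 itself, and the defining marker of heart, Mir208a. Replicate 1 held 146373 CPM of Mir206, where CPM is reads per 1000000 sense microRNA reads of the library, and 13.2 CPM of Mir208a. Replicate 2 held 32.9 CPM of Mir206 and 9670 CPM of Mir208a, which goes against its label. Both are therefore named by their labels only, as the library labelled replicate 1 and the library labelled replicate 2.

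MicroRNAs are short RNAs cut from a hairpin precursor, and they repress messenger RNAs that pair with their seed, the bases near the 5′ end. In mammals the family is arranged as pairs, with a Mir1-type gene and a Mir133-type gene carried on the same primary transcript. miR-1 and miR-133a are abundant in both heart and skeletal muscle, while miR-206 and miR-133b belong to skeletal muscle and rise as myoblasts differentiate. miR-1 and miR-206 are known to promote differentiation of muscle cells, and miR-133 is known to act on their proliferation and on serum response factor.

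The mature arms of the members matched in the RefSeq table (GRCm38.p6, the assembly also called mm10) are printed here. No arm of Mir1a-2, Mir133a-1 or Mir133a-2 is among them, so these arms cannot show which reads tell the Mir1a or Mir133a copies apart. The arms are written 5′ to 3′ with the seed, bases 2 to 8, in capitals.
mmu-miR-206-3p: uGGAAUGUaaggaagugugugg
mmu-miR-206-5p: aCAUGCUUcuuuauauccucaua
mmu-miR-1a-1-5p: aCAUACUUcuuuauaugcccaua
mmu-miR-133b-3p: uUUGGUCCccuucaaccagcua
mmu-miR-133b-5p: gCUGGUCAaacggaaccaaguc

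Entries matched for 3 of the 8 members, Mir206, Mir133b and Mir1a-1, with 5 mature arms. The 5p arms of Mir206 and Mir1a-1 are both 23 nt long and have 20 positions in common. Counted from 1 at the 5′ end and given from Mir206 to Mir1a-1, they differ by G5A, C17G and U19C. The substitution G5A lies in the seed, so the 5p seeds of the 2 genes differ. The 3p seeds recur within the family. Bases 1 to 10 of miR-206-3p, which hold its seed, occur in the annotated hairpins of Mir1a-1 and Mir1a-2, and bases 1 to 21 of miR-133b-3p, which hold its seed, occur in those of Mir133a-1 and Mir133a-2.

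The hairpins of both genes of the Mir206 locus are shown because nearly all counted reads of the family in replicate 1 fell on this locus. It held 653084 of 653225 family reads in replicate 1 and 111 of 292 in replicate 2. Mature arms are in capitals.
Mir206 (chr1:20679010-20679082, plus strand): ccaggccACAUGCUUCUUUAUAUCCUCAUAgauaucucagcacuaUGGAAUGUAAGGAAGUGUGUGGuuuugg
Mir133b (chr1:20682769-20682887, plus strand): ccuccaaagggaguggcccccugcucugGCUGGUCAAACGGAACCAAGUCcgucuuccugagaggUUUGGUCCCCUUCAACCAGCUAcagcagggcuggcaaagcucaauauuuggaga

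The 8 genes lie at 3 paired loci and at 1 separate site. Mir206 and Mir133b are 3686 bases apart on chromosome 1, on the strand of the noncoding gene Gm28653 (20669882 to 20684298), which RefSeq lists as Lincmd1 over 20669882 to 20682958. Mir133b lies whole inside 2 annotated exons of Gm28653. Mir206 lies whole inside none, since an alternative exon covers 60 of its 73 bases and the other overlapping transcript has an intron there. Mir1a-1 (chromosome 2, 180389048 to 180389124) and Mir133a-2 (180398379 to 180398482) are 9254 bases apart on the plus strand and overlap no other gene of GENCODE M21. The host transcript Mir1a-1hg, named below, was taken from RefSeq. Mir1a-2 (chromosome 18, 10785481 to 10785552) and Mir133a-1 (10782909 to 10782976) are on the minus strand, in introns of their host transcript Mir133a-1hg and opposite introns of Mib1, a ubiquitin ligase gene of Notch signalling. Mir1b (10785446 to 10785567) is on the plus strand and spans Mir1a-2 whole. Mir133c (chromosome 2, 29475215 to 29475294, minus strand) stands alone, opposite an intron of Med27, a gene for a subunit of the Mediator complex.

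Mir206, the skeletal muscle member, separated the libraries more than any other gene tested. It had 652657 sense reads in the library labelled replicate 1, or 14.6% of that library's microRNA reads (95% exact interval 14.6 to 14.7%), the highest of all genes. In the library labelled replicate 2 it had 101 reads, or 0.00329% (0.00268 to 0.00399%), and ranked at 204 by reads. The log2 ratio of replicate 2 over replicate 1, scaled by the trimmed mean of M values (TMM), was −12.73 (counting interval −13.04 to −12.47). It was the lowest of the 410 genes tested, those with 10 or more reads over both libraries. A gene was called where its log2 ratio was at least 1 in size and its exact binomial test of reads, with Benjamini-Hochberg adjustment, gave a p under 0.05, and Mir206 was called lower. In raw reads the gene was 6462 times higher in replicate 1. The markers of the library labelled replicate 2 go against its label, as given above. Fewer cells of a type and less RNA per cell cannot be told apart in these bulk libraries.

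Mir133b, the partner of Mir206 on the same strand, was also lower in the library labelled replicate 2 but by a smaller factor. It had 427 reads (95.8 CPM, 86.9 to 105 CPM) in replicate 1 and 10 reads (3.25 CPM, 1.56 to 5.98 CPM) in replicate 2. The log2 ratio was −5.37 (−6.58 to −4.61), which was called lower and is rank 43 from the lowest, and the raw reads were 42.7 times higher in replicate 1. The intervals of the 2 genes' log2 ratios did not overlap.

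**Figure D1:**
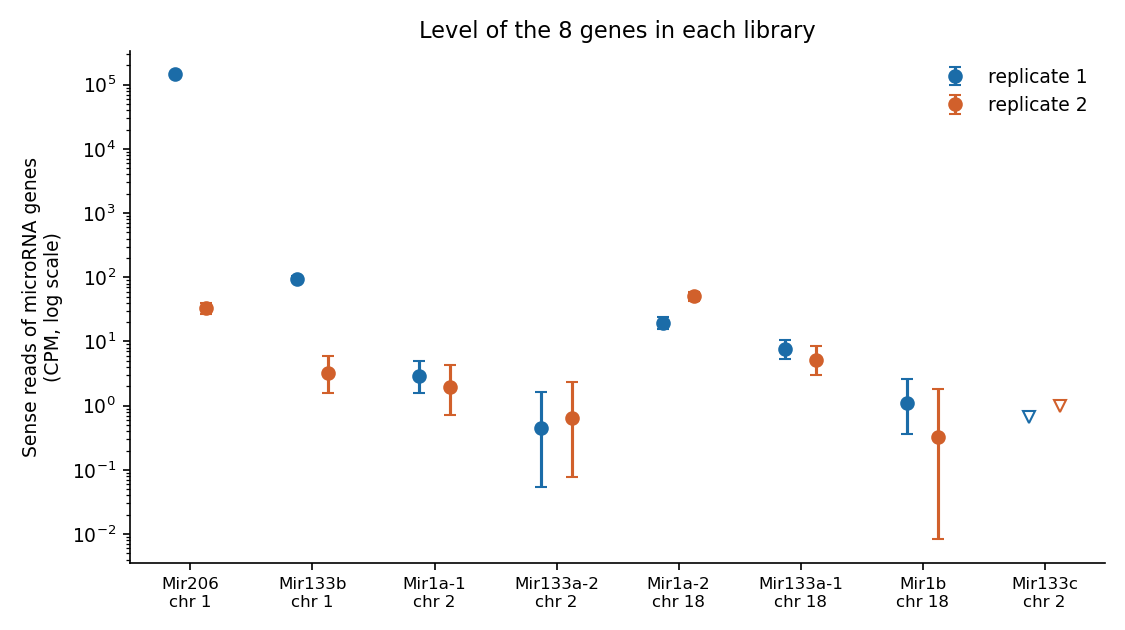
Level of each of the 8 genes in both libraries in CPM (log axis), with exact 95% counting intervals as bars; open triangles mark the limit for a count of 0. Mir206 stands at 146373 CPM in replicate 1 and 32.9 CPM in replicate 2, while Mir1a-2 stands higher in replicate 2, at 50.8 CPM against 19.5 CPM. Mir133a-2 has 2 reads in each library and overlapping intervals.

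Within the locus, the balance of the counted reads of the 2 genes thus differed between the libraries. This ratio needs no scaling between libraries, and the 3p arms of both genes are 22 nt long. There were 1528.5 reads of Mir206 for each read of Mir133b in replicate 1 (counting interval 1390.1 to 1684.5). In replicate 2 there were 10.1 (5.27 to 21.7), and the intervals did not overlap. The ratio is of reads placed at 1 locus, and reads of Mir133b that map to several places are not in it.

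The sequences printed above give what Mir133b shares with its relatives. Bases 1 to 21 of the 22 nt arm miR-133b-3p occur in the annotated hairpins of both Mir133a-1 and Mir133a-2, so only the base at the 3′ end tells this arm from them. For miR-206-3p the longest run found in any other member was 10 nt, bases 1 to 10, in Mir1a-1 and Mir1a-2. No stretch of 18 nt or more of the Mir206 hairpin occurs in another annotated microRNA gene. Reads of miR-133b-3p that lack the base at the 3′ end match several places and are not counted for Mir133b. How many such reads were lost in each library was not tested. Whether reads of Mir133a entered the 10 Mir133b reads of replicate 2 was not tested either.

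The start of the host transcript, which spans both genes of the locus, is shown. Whether it has a part in their lower reads in replicate 2 was not tested. Below are 250 bases before and 50 bases after the RefSeq start of Lincmd1, with matches to the E-box CANNTG and to the MEF2 consensus in capitals. E-boxes are the class of site read by MyoD and its relatives, and MEF2 factors act with them in muscle.
Lincmd1 (chr1:20669632-20669931, plus strand): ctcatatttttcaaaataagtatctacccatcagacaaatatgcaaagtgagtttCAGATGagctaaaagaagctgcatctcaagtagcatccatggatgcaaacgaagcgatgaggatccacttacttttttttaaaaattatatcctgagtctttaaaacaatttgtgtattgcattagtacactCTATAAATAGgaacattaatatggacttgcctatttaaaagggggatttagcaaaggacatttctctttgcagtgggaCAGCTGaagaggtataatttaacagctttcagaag

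The window held 2 matches to CANNTG, starting 195 bases upstream and 15 bases downstream of the start, searched on both strands. At least 1 such match occurred in 72.3% of 32851 promoters of the same length. The downstream match reads CAGCTG, found in 16.3% of promoters. The window held 1 match to the MEF2 consensus, 63 bases upstream, which 3.19% of promoters held. That match overlaps a match to TATAAA, found in 13.6% of promoters. The window of the same length at Mir1a-1hg, the host transcript of Mir1a-1, also held 2 matches to CANNTG, 1 of them CAGCTG, and 0 to the MEF2 consensus or TATAAA. These are matches of letters, with no binding measured.

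The make-up of the family differed between the libraries. Its 8 genes had 653225 reads in replicate 1, or 14.65% of microRNA reads (14.62 to 14.68%). They had 292 reads in replicate 2, or 0.00950% (0.00844 to 0.0107%). Mir206 gave 99.9% of the family's reads in replicate 1 and 34.6% (29.1 to 40.4%) in replicate 2. Mir1a-2 gave 0.0133% of them in replicate 1 and 53.4% (47.5 to 59.3%) in replicate 2. Without Mir206, the other 7 genes had 568 and 191 reads, 127 and 62.2 CPM. All these totals and shares are of reads placed at 1 locus. Any reads of Mir133b and of the Mir1a and Mir133a copies that map to several places are not among them. The totals and shares are therefore not those of mature miR-1, miR-133a or miR-133b.

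**Figure D2:**
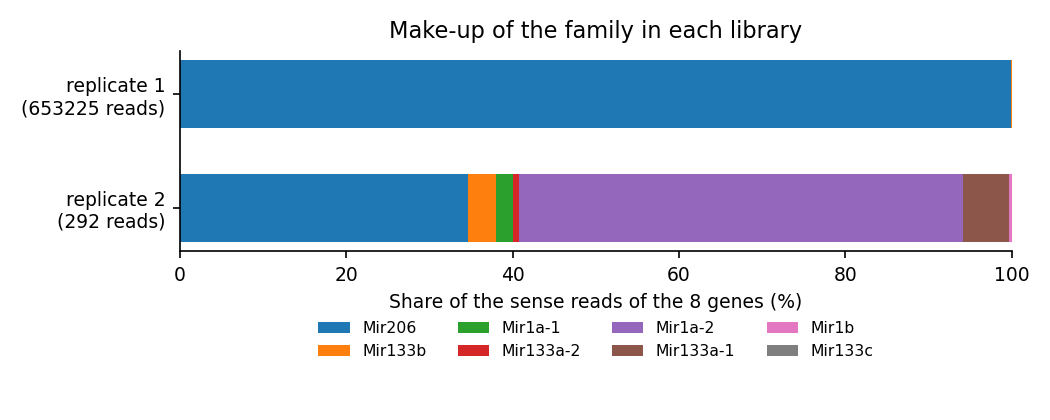
Share of the family's sense reads (%, horizontal axis) held by each of the 8 genes, with 1 bar for each library and its number of family reads beside it. Mir206 fills 99.9% of the bar of replicate 1, while Mir1a-2 at 53.4% and Mir206 at 34.6% share most of that of replicate 2. Only reads placed at 1 locus are counted.

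Mir1a-2, the Mir1 gene of chromosome 18, had the most counted reads of the members in the library labelled replicate 2. It had 87 reads in replicate 1 (19.5 CPM, 15.6 to 24.1 CPM) and 156 in replicate 2 (50.8 CPM, 43.1 to 59.4 CPM). The CPM intervals did not overlap. Its log2 ratio was 0.75 (0.37 to 1.15) with TMM scaling, under the threshold of 1, and 1.02 under DESeq2 size factors and 1.37 under total reads, past it. The call of this gene thus depends on the scaling.

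Mir133a-1, the partner of Mir1a-2, did not follow it. It had 34 reads in replicate 1 (7.63 CPM, 5.28 to 10.7 CPM) and 16 in replicate 2 (5.21 CPM, 2.98 to 8.46 CPM), and these intervals overlapped. The log2 ratio was −1.13 (−2.13 to −0.28), called lower with TMM scaling. It was under the threshold with DESeq2 size factors (−0.86), with total reads (−0.53), with a prior count of 5 (−0.97) and in the unstranded column (−0.96). There were 2.56 reads of Mir1a-2 for each of Mir133a-1 in replicate 1 (1.70 to 3.92) and 9.75 in replicate 2 (5.82 to 17.5). These intervals did not overlap, so the balance of the counted reads differed between the libraries in the opposite direction to that of the Mir206 locus. Reads that Mir1a-2 or Mir133a-1 share with the copies on chromosome 2 map to several places and are not counted. The ratio is therefore not one of all reads from this locus.

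The pair on chromosome 2 had at most 13 reads a gene. Mir1a-1 had 13 reads in replicate 1 (2.92 CPM, 1.55 to 4.99 CPM) and 6 in replicate 2 (1.95 CPM, 0.717 to 4.25 CPM). Its log2 ratio of −1.08 had a counting interval from −2.89 to 0.29 and was not called. Mir133a-2 had 2 reads in each library (0.449 and 0.651 CPM), too few to be tested, with a log2 ratio of −0.06 (−3.88 to 3.70) that turned to 0.13 under DESeq2 size factors and to 0.36 under total reads. The ratio of Mir1a-1 to Mir133a-2 was 6.50 (1.47 to 59.3) in replicate 1 and 3.00 (0.536 to 30.4) in replicate 2. A difference was not detectable with so few counted reads. Reads that these genes share with Mir1a-2 or Mir133a-1 map to several places and are not counted. The counts are therefore not all reads from this locus.

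**Figure D3:**
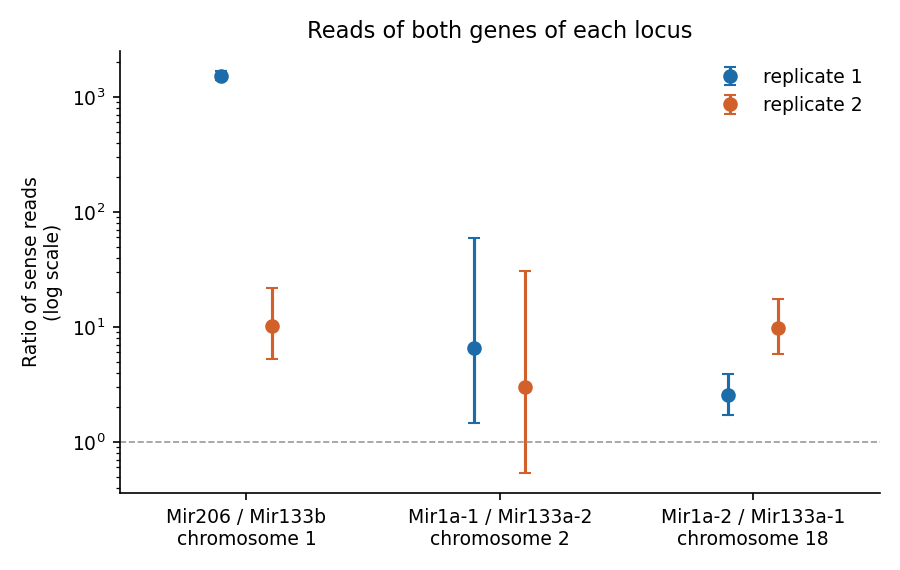
Ratio of sense reads of the Mir1-type gene to the Mir133-type gene (log axis) at each of the 3 loci in both libraries, with exact 95% counting intervals; the dashed line marks equal reads. The ratio is 1528.5 and 10.1 at the Mir206 locus, 6.50 and 3.00 on chromosome 2, and 2.56 and 9.75 on chromosome 18, in replicates 1 and 2. Only reads placed at 1 locus are counted.

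Mir1b and Mir133c, the members outside the pairs, were at or near the limit of detection. Mir1b had 5 reads in replicate 1 and 1 in replicate 2, a log2 ratio of −1.65 with an interval from −7.98 to 0.75, and was not tested. Mir133c had 0 reads in both libraries, which sets upper limits of 0.673 CPM and 0.976 CPM for replicates 1 and 2.

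The columns for each strand show where reads of the overlapping pair on chromosome 18 went. Mir1a-2 had 87 and 156 reads on its own strand and 5 and 1 on the other, and Mir1b the same counts in reverse. In the unstranded column both genes stood at 0 in both libraries, so their level can be read only from the stranded columns. The other 6 members had 0 antisense reads in both libraries, and their sense and unstranded counts were equal.

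Copies with the same sequence limit what the counts of Mir1a and Mir133a measure. Mir1a-1 and Mir1a-2 share a run of 28 nt, and Mir133a-1 and Mir133a-2 one of 31 nt, each longer than a mature microRNA. Of the 8 genes, 5 share a stretch of 22 nt with another annotated microRNA gene and 6 share one of 18 nt, Mir133b being the gene added at the shorter length. The overlap of Mir1a-2 and Mir1b with each other is not counted here. Shared stretches of 22 nt made up 7 of 56 windows in Mir1a-1, 7 of 51 in Mir1a-2, 13 of 47 in Mir133a-1 and 13 of 83 in Mir133a-2. Reads that map to several places came to 3039284 (35.7%) in replicate 1 and 3266711 (45.1%) in replicate 2 and are assigned to no gene. How many of them belong to miR-1, miR-133a or miR-133b was not tested. The counts above are therefore of reads placed at 1 locus and are not levels of mature miR-1, miR-133a or miR-133b. The 22 nt stretches of Mir206 and Mir133b are in no other annotated microRNA gene.

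**Figure D4:**
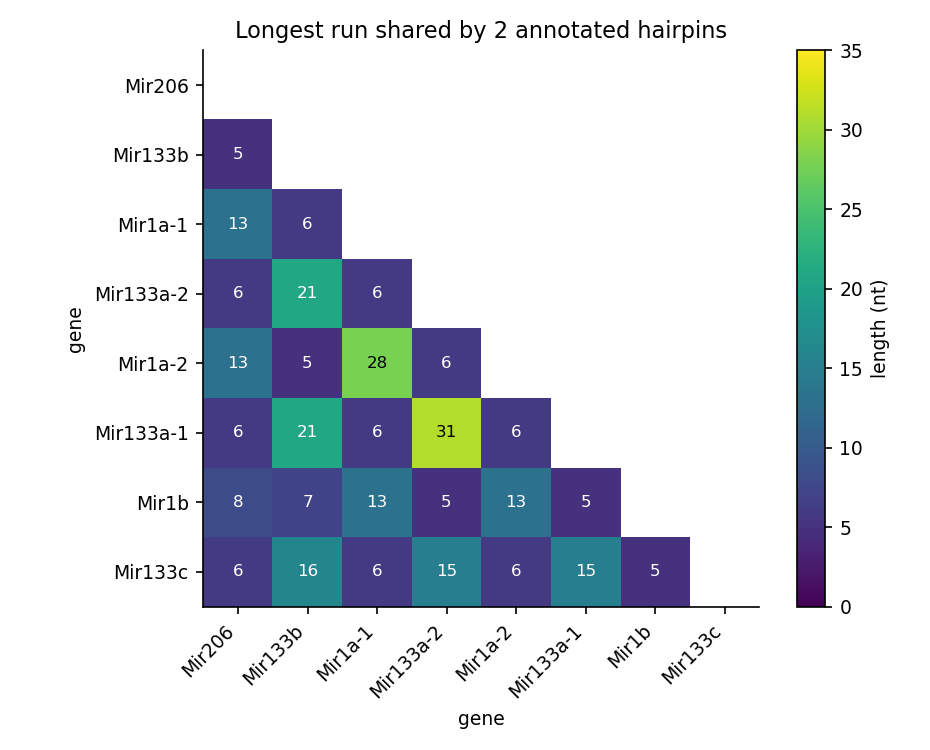
Longest run of bases (nt, colour and number) that 2 annotated hairpins of the family share on the same strand, for each pair of the 8 genes. The Mir133a copies share 31 nt and the Mir1a copies 28 nt, Mir133b shares 21 nt with both Mir133a genes, and Mir206 shares at most 13 nt with any other member.

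The order of the members differed between the libraries. In replicate 1 it ran Mir206, Mir133b, Mir1a-2, Mir133a-1 and Mir1a-1, and none of these neighbours had overlapping intervals. In replicate 2 it ran Mir1a-2, Mir206 and Mir133a-1, again without overlap. Mir133a-1, Mir133b, Mir1a-1, Mir133a-2 and Mir1b then followed in replicate 2, and each overlapped its neighbour. The mature arms printed above are 22 or 23 nt long and the libraries hold short inserts, so reads are compared without division by hairpin length.

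Across the whole table, 148 of 410 tested genes (36.1%) were lower in replicate 2 and 72 (17.6%) were higher, which makes 53.7% called in either direction. Of the 8 members, 5 had enough reads to be tested. The 3 lower were Mir206, Mir133b and Mir133a-1, and 0 were higher. The members' median log2 ratio was −1.13, that of all tested genes −0.33. Scaling by DESeq2 size factors or by total reads gave 2 members lower and 1 higher each. Of all 410 tested genes, 127 were lower and 100 higher under DESeq2 size factors, and 115 and 135 under total reads. The median of all tested genes moved by 0.26 and 0.59 in that order. Higher calls were 32.7% of all calls with TMM, 44.1% under DESeq2 size factors and 54.0% under total reads. The calls of Mir206 and Mir133b were made under all 3 scalings, with log2 ratios from −12.73 to −12.11 and from −5.37 to −4.77. An edgeR exact test that took its dispersion from this same pair called 0 genes, while 28 genes, with 1 member (Mir206) among them, reached an unadjusted p under 0.05.

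**Figure D5:**
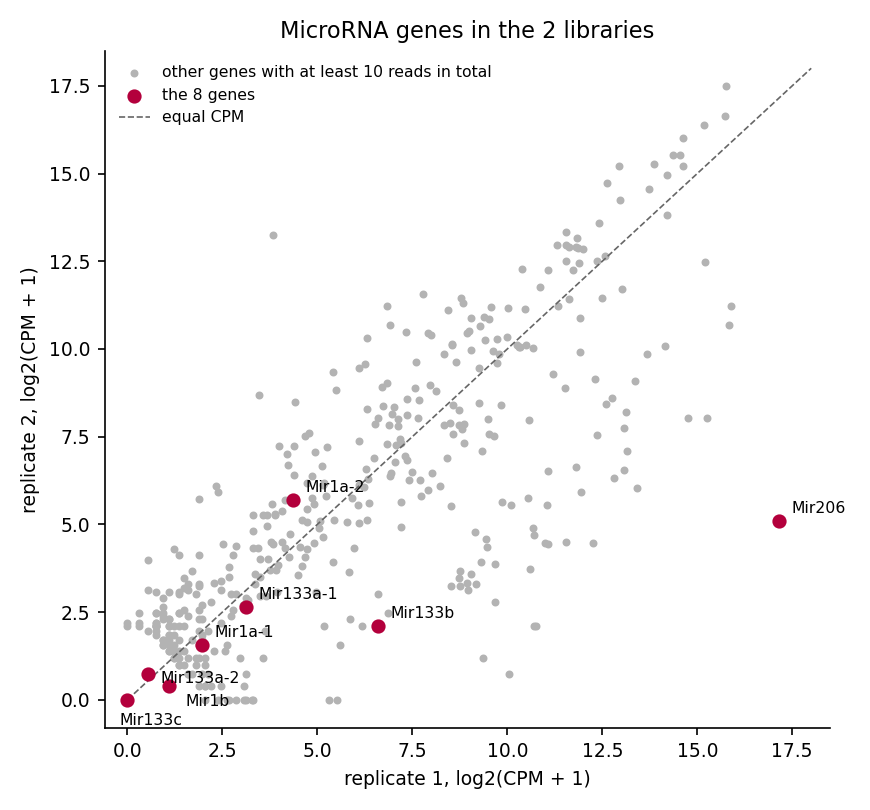
Level of each microRNA gene with at least 10 reads in total, and of all 8 members, as log2(CPM + 1) in replicate 1 (horizontal) and replicate 2 (vertical); the dashed line marks equal CPM. Mir206, at 146373 and 32.9 CPM, lies far below the line at the right edge, Mir133b (95.8 and 3.25 CPM) lies below it, and the other members lie nearer to it.

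The genes nearest to Mir206 in log2 ratio, over 2 libraries and 263 other genes with at least 100 reads, were still at least 2.04 log2 units away. They were Mir196a-2 of the Hoxc cluster (4714 and 2 reads, −10.69), Mir665 (7684 and 10 reads, −9.53) and Mir380 (7421 and 10 reads, −9.48). Nearest to Mir133b were Mir299a (23342 and 572 reads, −5.44), Mir127 (269519 and 7304 reads, −5.29) and Mir329 (6665 and 161 reads, −5.45), each within 0.09 log2 units. All of these but Mir196a-2 lie on chromosome 12 in the imprinted Dlk1-Dio3 domain.

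Other microRNAs known from muscle went both ways. In a list of 22 such genes, 9 were higher in replicate 2 and 7 lower, beside 17.6% and 36.1% of all tested genes. Their median log2 ratio was 0.78. The counts were 11 higher and 4 lower under DESeq2 size factors, beside 100 and 127 of all 410 tested genes. They were 12 and 3 under total reads, beside 135 and 115 of the 410. The list includes Mir208a (log2 ratio 8.86, called higher) and Mir214 (−1.68, called lower), which are also among the cell type markers below. Mir499, in an intron of the myosin gene Myh7b, was higher in replicate 2, at 438 and 2809 CPM (log2 ratio 2.05). Mir503, linked to cell cycle exit in myoblasts, was lower (3573 and 559 reads, log2 ratio −2.76).

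Markers of other cell types went both ways. Of 27 such genes 20 were tested, 8 higher and 7 lower in replicate 2, beside 17.6% and 36.1% of all tested genes. The counts were 11 higher and 6 lower under DESeq2 size factors, beside 100 and 127 of all 410 tested genes. They were 13 and 6 under total reads, beside 135 and 115 of the 410. Their summed level was 5.51% of reads in replicate 1 and 13.2% in replicate 2. The heart marker Mir208a, with 59 and 29718 reads, stood at a log2 ratio of 8.86 (8.52 to 9.28) and was called higher. The erythroid markers held 0.0220% and 0.0979% of reads, with 2 of 2 called higher, and the epithelial ones 0.00285% and 0.0394%, with 3 of 4 called higher. The white blood cell markers held 0.0538% and 0.293%, with Mir150 and Mir155 called higher, Mir223 called lower and Mir142 not called. The endothelial marker Mir126a held 2.54% and 6.62% and the smooth muscle markers 2.17% and 4.90%, and none of these was called with TMM scaling. Lower in replicate 2 were the fibroblast markers at 0.591% and 0.281%, the neural ones at 0.108% and 0.0299% and the liver marker Mir122 at 0.0258% and 0.00875%. The Mir9 and Mir124a genes, 6 of the 8 neural markers, were at 0 in both libraries, and Mir199a-1 had 1 and 0 reads. The part of these markers in the results on the family was not tested.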

How the data were processed

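MicroRNA libraries of inserts under 30 nt, from 2 samples of 1 group, were analysed. The deposited files hold raw counts of reads for each microRNA gene, with 1 column that ignores strand, 1 for sense and 1 for antisense reads. The authors used mm10 with GENCODE M21, per the file headers of the deposited descriptions. Aligner, settings and trimming: not given in the sources used here. The 4 summary lines that name no gene were left out of library sizes and tests: unmapped, multimapping and unannotated reads were 9.97%, 35.7% and 2.05% of replicate 1 and 8.60%, 45.1% and 3.83% of replicate 2. All 2202 identifiers matched GENCODE M21, and 0 columns of another sample were used.

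Sense counts were used throughout. TMM factors (edgeR 4.0.16, R 4.3.3) came from genes with at least 10 reads in total. Log2 ratios divide replicate 2 by replicate 1, add a prior count of 1 and have exact 95% binomial intervals without that prior. The same 410 genes had a two-sided exact binomial test with Benjamini-Hochberg adjustment over all of them. Calls needed an adjusted p under 0.05 together with a log2 ratio of 1 or more in size. The test measures departure from counting noise between 2 libraries, and animals beyond these are not covered. Shares and CPM have Clopper-Pearson intervals, and a count of 0 allows 3 counts. PCR reads without molecular identifiers are not independent molecules. The test was checked on simulated counts that held counting noise only, the noise it assumes. That check does not cover spread between animals or libraries.

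Alternatives were DESeq2 1.42.0 size factors, total reads, other minimum counts and prior counts, the unstranded column, the edgeR exact test and other denominators. Sequences come from RefSeq tables (GRCm38.p6), and shared stretches from GENCODE M21 transcripts with Python 3.11.15, numpy 2.4.6, scipy 1.17.1, pandas 2.3.3 and matplotlib 3.10.9. Named genes are the members, overlapping genes, a muscle list, cell type markers and, for Mir206 and Mir133b, the 3 nearest genes in log2 ratio with at least 100 reads. The members and lists were chosen with earlier results of these data known.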

Additional observations from a re-analysis of the deposited data

Results flagged for a closer look

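Reads in the antisense column, which the comparisons do not use, passed the limit of 3 counts that a count of 0 allows for 2 of the 8 genes. Mir1b had 87 antisense reads in replicate 1 and 156 in replicate 2, the counts that Mir1a-2 has on its own strand at the same place. Mir1a-2 had 5 antisense reads in replicate 1, the sense count of Mir1b there.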

How the results depend on the processing

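No paired analysis was possible because the labels give a single group. None of the 5 members tested changed sign under an alternative in which it was tested. For the other genes only the number of calls was compared, not the direction of each. Mir133a-1 lost its call under DESeq2 size factors, total reads, a prior count of 5, the unstranded column and the edgeR exact test. With the edgeR exact test on the dispersion of the pair, 0 genes were called, 0 lower and 0 higher, and 0 members were lower, against 220, 148, 72 and 3. This dispersion comes from the 2 libraries compared, so it contains their difference. Genes called higher came to 135 with total reads and to 45 with at least 100 reads in total, where 266 genes were tested. With DESeq2 size factors 1 member was higher, and with total reads 1 also, Mir1a-2 in both. Of all 410 tested genes, 100 and 135 were higher in that order. The mean share of the 7 genes other than Mir206 was 0.00948% and became 0.00465% with all reads as the denominator. In the unstranded column the ratio of Mir1a-2 to Mir133a-1 was 0 in replicate 1 and 0 in replicate 2, because reads of the overlapping genes are set aside there. Of the 3 members with a mature sequence, 0 share a whole searched arm with another annotated gene. For Mir1a-1 only the 5p arm was searched, so this count does not cover its 3p arm. Of the same 3 members, 2 share an 18 nt stretch of the hairpin and 1 a 22 nt stretch. The mean share of the family was 7.33%, and leaving out each library in turn gave 0.00950 to 14.65%; for the 7 genes other than Mir206 this range was 0.00622 to 0.0127%. Members under 10 reads in total are limited by their few counted reads. The Mir133a and Mir1a genes, and Mir133b for part of its reads, are limited by reads set aside as multimapping.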
